A study of Mus musculus with 4 samples.

Results

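Fatty acid synthesis and desaturation in the mouse ileum were followed through 10 genes: Acly, Me1, Acaca, Fasn, Elovl6, Scd1, Fads1, Fads2, Srebf1 and Thrsp. They were taken by name, through the RefSeq accession that each array probe carries, and all 10 were measured among the 21648 genes and unnamed transcripts tested. Total RNA of the ileum, the distal end of the small intestine, came from male C57BL/6J mice aged 10 weeks. The control group (n = 2) is described only as control, with no vehicle stated, and the metformin group (n = 2) received 1000 mg/kg of metformin, a glucose-lowering biguanide, by mouth for a time the labels do not give. Each sample was hybridised to its own single-colour array, and the labels do not state whether different mice gave the samples of a group. The p-values therefore reflect only how far these samples spread, perhaps for technical reasons. A level is given as the log2 signal relative to the 75th percentile of its array, and a difference is metformin minus control on that log2 scale with its standard error.

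Cells build fatty acids from cytosolic acetyl-CoA. Acly makes acetyl-CoA from citrate, Acaca carboxylates it to malonyl-CoA, Fasn joins these units into palmitate, and Me1 supplies NADPH for the reduction steps. Elovl6 lengthens palmitate, Scd1 places the first double bond in saturated chains, and Fads1 and Fads2 desaturate the essential polyunsaturated fatty acids. Srebf1 encodes SREBP-1, the transcription factor that drives most of these enzymes, and Thrsp (Spot 14) is a small lipogenic protein abundant in fat. Intestinal epithelium makes some fatty acid itself, but fat cells and liver are the tissues best known for this pathway.

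The 4 arrays had 65.2% to 69.1% of probes well above background, and their number limits the precision. They shared 1 slide and 1 scan, with controls at positions 1 and 2 and metformin samples at positions 3 and 4, so position and treatment cannot be told apart. Epithelial markers were bright throughout, for example Vil1, a brush border protein, with log2 values of 7.63 and 7.26 in the controls and 7.99 and 7.55 with metformin. Metformin 1 departed in part from its ileal label: Fabp6, the ileal bile acid binding protein, had a log2 signal of 4.16 there and 8.29 to 8.94 elsewhere. It was lowest in 5 of 7 ileal markers, but Cubn and Guca2a lay above their control mean there, by 0.37 and 0.08. In it, proximal markers had a list median of 2.57 above the control mean, against -0.80 in metformin 2. Control 1 carried more smooth muscle signal than the other samples (list median 2.40, against -2.40 to -3.59 in the other 3). Control 1 also shared some proximal signal, with a proximal list median of 0.33 against -0.33 in control 2. Ada, picked after its values were seen, had the widest gap of that list, at 6.50 in control 1 and -0.91 in control 2. Not all proximal markers went this way: Gata4, picked likewise, read 0.27 in control 1 and 0.45 in control 2. Differences of the fatty acid genes are therefore also given without metformin 1, and without control 1 where that moves them by over 1.5 times or turns their direction.

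Of the 8 enzymes, Scd1, Fads1, Fasn and Acaca were lower in both metformin samples than in either control, Acly, Me1 and Fads2 overlapped between the groups, and no difference passed the test. Of the 10 genes, 8 had a negative difference, and in 5 of them (Thrsp, Scd1, Fads1, Fasn and Acaca) both metformin samples lay below both controls; such separation covered 8.57% of all genes tested. Elovl6 alone lay above both controls in both metformin samples, a separation that covered 12.3% of all genes. Thrsp and Scd1 were at least 2-fold lower without overlap, as were 2.32% of all genes, and none was as much higher (0.628% of all genes). The median difference over the 10 genes was -0.64, against 0.06 over all genes, and single samples had medians of 0.02 and -0.02 in control 1 and 2, -1.06 in metformin 1 and -0.40 in metformin 2. Without metformin 1 the median difference was -0.40.

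None of these differences passed the test. By limma with Benjamini-Hochberg adjustment, 0 of the 10 genes and 0% of all genes were called in either direction, and every adjusted p was 1. At an unadjusted p under 0.05 limma's fit held 3 of the 10 (Thrsp, Scd1 and Fads1), all lower, against 1.26% of all genes lower and 0.346% higher. Over the 15 alternatives this count was 1 to 4: Thrsp stayed under 0.05 in 15 of them, Scd1 in 10 and Fads1 in 5. An exact two-sided permutation of 2 samples against 2 cannot go below p = 0.333. In whole tissue, fewer cells of a type and less RNA per cell cannot be told apart.

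**Figure D1:**
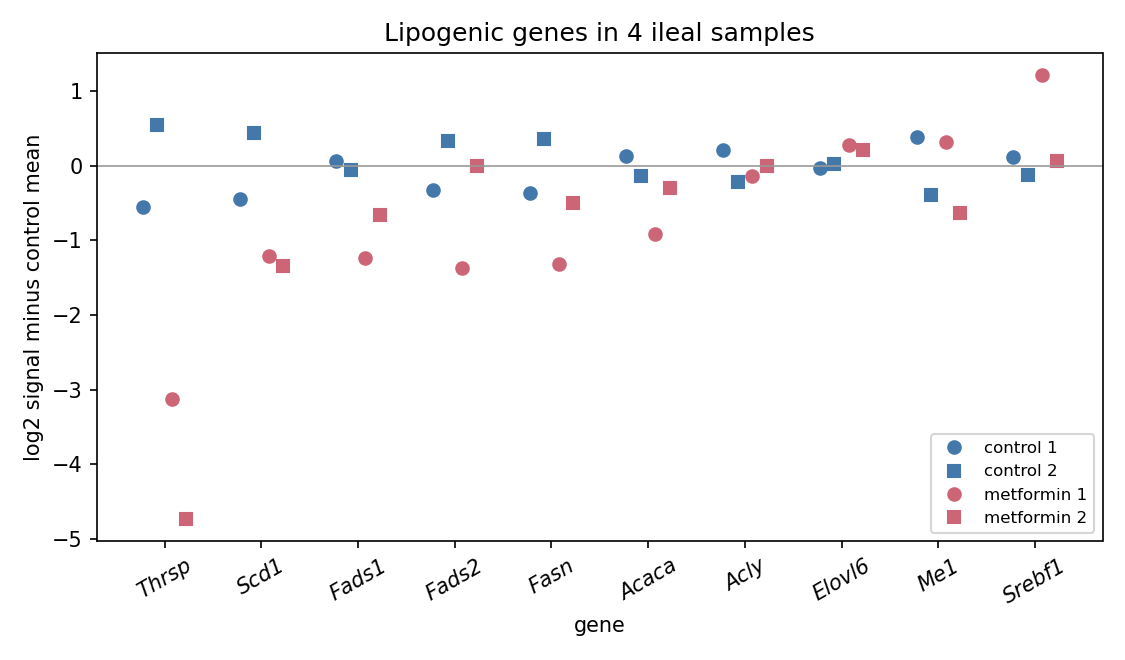
Log2 signal of each gene minus its control mean (vertical axis) for the 10 genes (horizontal axis), with 1 point per sample; blue points are controls, red points metformin samples, circles replicate 1 and squares replicate 2. Thrsp lies at -3.13 and -4.73 in the metformin samples, Scd1 lies low in both, and Srebf1 is high in metformin 1.

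Of the 10 genes, 8 had promoter sequence in the RefSeq table for build GRCm38.p6 (11 start sites), and Scd1 and Fads1 are named only. The 250 bases before the start are shown for Thrsp, Fasn and Acaca, which were lower without overlap, for a start of Srebf1, and for Elovl6, which was higher without overlap, so that their letters can be set side by side. Capitals mark CCAAT or its reverse ATTGG, the letters that NF-Y, a partner of SREBP, is known to bind, and TCACCC, the core of several sterol regulatory elements.
Thrsp (chr7:97417551-97417800, minus strand): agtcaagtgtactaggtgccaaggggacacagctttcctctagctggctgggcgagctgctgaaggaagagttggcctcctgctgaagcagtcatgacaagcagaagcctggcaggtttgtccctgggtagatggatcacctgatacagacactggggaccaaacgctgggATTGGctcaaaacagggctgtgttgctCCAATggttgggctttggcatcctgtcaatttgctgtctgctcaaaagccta
Fasn (chr11:120824548-120824797, minus strand): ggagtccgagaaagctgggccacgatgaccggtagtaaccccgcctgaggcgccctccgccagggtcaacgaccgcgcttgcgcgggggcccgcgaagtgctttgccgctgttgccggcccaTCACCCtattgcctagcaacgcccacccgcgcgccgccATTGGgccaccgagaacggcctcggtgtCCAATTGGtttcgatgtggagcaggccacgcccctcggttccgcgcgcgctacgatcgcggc
Srebf1 (chr11:60210472-60210721, minus strand): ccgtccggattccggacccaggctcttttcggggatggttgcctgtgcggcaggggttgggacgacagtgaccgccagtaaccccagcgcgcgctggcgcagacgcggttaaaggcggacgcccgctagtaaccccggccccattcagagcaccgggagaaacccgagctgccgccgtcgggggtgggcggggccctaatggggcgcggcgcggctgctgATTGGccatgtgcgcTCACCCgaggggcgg
Acaca (chr11:84195188-84195437, plus strand): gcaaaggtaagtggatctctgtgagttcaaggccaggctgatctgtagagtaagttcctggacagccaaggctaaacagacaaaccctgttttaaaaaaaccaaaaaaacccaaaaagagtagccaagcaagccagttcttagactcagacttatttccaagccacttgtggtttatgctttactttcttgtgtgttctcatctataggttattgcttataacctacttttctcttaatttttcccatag
Elovl6 (chr3:129532136-129532385, plus strand): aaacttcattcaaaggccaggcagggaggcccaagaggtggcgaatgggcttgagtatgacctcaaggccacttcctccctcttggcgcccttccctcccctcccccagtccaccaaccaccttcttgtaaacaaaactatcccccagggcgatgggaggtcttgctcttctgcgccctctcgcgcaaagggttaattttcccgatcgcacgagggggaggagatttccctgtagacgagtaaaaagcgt
Both strands were searched, and the letters were chosen with these sequences in view. Thrsp holds CCAAT in both orientations, 52 and 79 bases before its start. Fasn holds CCAAT at 3 places, a pair of which overlap, with TCACCC 128 bases before the start. The Srebf1 start shown holds ATTGG and TCACCC 30 and 15 bases before. Of the Srebf1 starts not shown, one holds CCAAT alone, 166 bases before, and the other holds none of these letters. A start of Me1, whose groups overlapped, holds ATTGG 208 bases before, and its other start holds TCACCC 102 bases before. The Acaca and Elovl6 windows held none of these letters, nor did those of Fads2 and Acly. The Acaca window is that of a single listed start. Whether the ileum uses that start was not tested, so its lack of these letters need not hold for other Acaca promoters. Of the 11 starts, 5 hold CCAAT and 3 hold TCACCC. Over all 32851 windows of this length, 33.8% hold CCAAT and 13.8% hold TCACCC. The E-box CACGTG, present in 6.02% of windows, and TCACNCCAC, present in 1.05%, were found at none of the 11 starts. These matches are descriptions of sequence and not sites.

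The enzymes that supply carbon and reducing power differed little. Acly, the citrate lyase, had log2 values of 2.66 and 2.23 in the controls and 2.31 and 2.44 with metformin, a difference of -0.07 (SE 0.31). Me1, the cytosolic malic enzyme, had log2 values of 2.81 and 2.04 in the controls and 2.75 and 1.80 with metformin, a difference of -0.15 (SE 0.49). In both genes the groups overlapped, and in Me1 the samples numbered 1 read above those numbered 2 in each group. All 3 probes of Me1 gave differences between -0.15 and -0.24. The dimmer probe of Acly gave -0.45 (SE 0.36), with both metformin samples below both controls, a separation that covered 8.57% of all genes. In that probe metformin 1 lay only just below control 2 (log2 values of -5.29 and -5.28). Without metformin 1 the differences were -0.0062 for Acly and -0.63 for Me1; without control 1 they were 0.15 and 0.24, so the direction of both genes turned with 1 sample left out.

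Other genes of carbon and NADPH supply also overlapped between the groups. Of 10 measured, 8 were higher and 2 lower with metformin, none without overlap, and the median difference was 0.13 (0.0096 without metformin 1, -0.12 in the deposited table). Idh1, the cytosolic isocitrate dehydrogenase, differed by 0.49 (SE 0.48), Me2, a mitochondrial malic enzyme, by 0.47 (SE 0.45), and G6pdx, which opens the pentose phosphate route, by 0.25 (SE 0.32). Without metformin 1, Idh1 and Me2 both differed by -0.03 and G6pdx by 0.01. Acss2, which activates acetate, differed by -0.30 (SE 0.32). Me3 had a log2 signal of -3.11 in metformin 1 and of -0.11 to 0.97 in the other samples.

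The core synthesis enzymes were lower in both metformin samples. Fasn had log2 values of -3.07 and -2.34 in the controls and -4.01 and -3.21 with metformin, a 1.88-fold lower level (difference -0.91, SE 0.46). Metformin 1 was lowest, and metformin 2 lay only just below control 1. Acaca, the acetyl-CoA carboxylase, had log2 values of 2.03 and 1.77 in the controls and 0.99 and 1.61 with metformin, a 1.52-fold lower level (difference -0.60, SE 0.36). Here too metformin 1 stood apart, and metformin 2 was close to control 2. A dimmer probe of Acaca differed by -0.32 (SE 0.34) with overlap, and another probe was well above background on 1 array and was not tested. Without metformin 1 the differences were -0.50 for Fasn and -0.29 for Acaca; Fasn differed by -0.54 without control 2 and by -0.58 with normexp background correction.

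Partners of these enzymes gave mixed values. Of 7 measured genes for the second carboxylase, its regulators and mitochondrial fatty acid synthesis, 4 were lower and 3 higher, and the median difference was -0.17 (0.04 without metformin 1, -0.50 without metformin 2). Mcat, the mitochondrial malonyl transferase, was lower without overlap (difference -0.33, SE 0.30); 1 of 7 lies near the 8.57% of all genes. Acacb, the carboxylase isoform at the mitochondrial surface, had log2 values of -0.36 and 0.44 in the controls, with -1.64 for metformin 1 and 0.84 for metformin 2. Mid1ip1, a relative of Thrsp that activates the carboxylase, had log2 values of 2.23 and 4.07 in the controls and 2.00 and 3.95 with metformin, a difference of -0.17 (SE 0.95). Its samples numbered 1 were low and those numbered 2 high in both groups.

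Scd1, the stearoyl-CoA desaturase, was lower by like amounts in both metformin samples. Its log2 signals were -0.57 and 0.31 in the controls and -1.34 and -1.47 with metformin, a 2.42-fold lower level (difference -1.28, SE 0.41). The metformin samples differed from each other by 0.12 and the controls by 0.89, so the spread lay in the controls. Without metformin 1 the difference was -1.34, and leaving out each sample in turn kept it between -1.72 and -0.83, the latter without control 2, a move of over 1.5 times.

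Fads1, the delta-5 desaturase, had log2 values of -2.90 and -3.02 in the controls and -4.20 and -3.63 with metformin, a 1.93-fold lower level (difference -0.95, SE 0.34). Both metformin samples were at least 0.60 below either control, and without metformin 1 the difference was -0.66. Fads2, the delta-6 desaturase that precedes it in the same pathway, had log2 values of -4.54 and -3.89 in the controls and -5.58 and -4.22 with metformin, a difference of -0.69 (SE 0.58). Metformin 2 lay between the controls, and without metformin 1 the difference was -0.0032. Both probes were dim, and with normexp background correction the differences were -0.47 for Fads1 and -0.17 for Fads2.

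Elovl6 was 1.19-fold higher, with log2 values of 2.08 and 2.13 in the controls and 2.38 and 2.32 with metformin (difference 0.25, SE 0.27). The samples of each group lay close together, and the difference was 0.21 without metformin 1. In the deposited table as it stands the difference was -0.0016, and 0.26 with those values scaled to each array's 75th percentile. Elovl6 and Acly were the only genes of the 10 whose direction changed under another scaling or the deposited values. Acly had 0.06 with median scaling.

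The other elongation and desaturation genes gave mixed values. Of 9 measured elongation genes 5 were lower and 4 higher, none without overlap, with a median difference of -0.0023 (0.21 without metformin 1). Metformin 1 was lowest of the 4 samples in 7 of the 9, as it was in 28.4% of all genes. Elovl5, which extends polyunsaturated chains, had log2 values of 1.88 and 1.59 in the controls, with 0.78 for metformin 1 and 1.76 for metformin 2. Of 11 other desaturases and their electron donors, 8 were higher and 3 lower, and the median difference was 0.27 (-0.09 without metformin 1). Scd2, another stearoyl-CoA desaturase, had log2 values of 3.39 and 3.30 in the controls, with 1.10 for metformin 1 and 4.06 for metformin 2. Fads3 had log2 values of -1.52 and -1.50 in the controls, with -3.24 for metformin 1 and -1.38 for metformin 2. In Scd2 and Fads3 metformin 2 was the highest sample and metformin 1 the lowest, whereas in Scd1 both metformin samples were low.

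**Figure D2:**
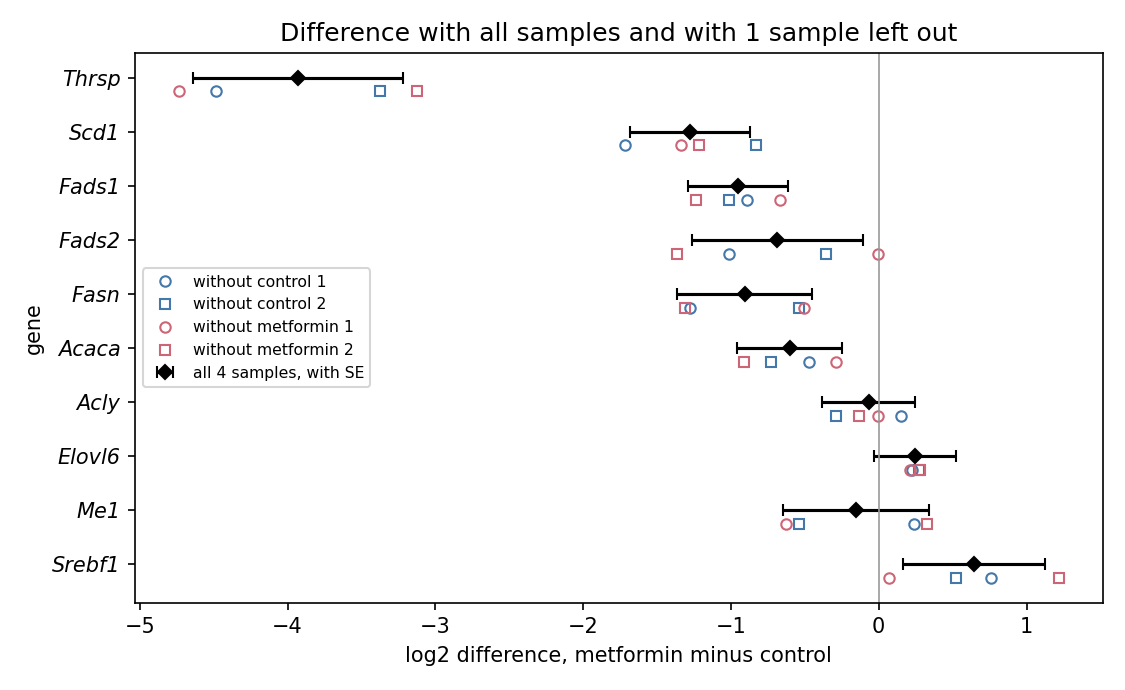
Log2 difference, metformin minus control (horizontal axis), for each gene (vertical axis); black diamonds with bars are the fit to all 4 samples with its standard error, and open symbols are fits with 1 sample left out (blue controls, red metformin samples; circles replicate 1, squares replicate 2). Thrsp stays between -4.73 and -3.13, whereas Fads2 is at -0.0032 and Srebf1 at 0.07 without metformin 1.

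Thrsp and Srebf1 differed in opposite directions. Thrsp had log2 values of -2.44 and -1.33 in the controls and -5.01 and -6.62 with metformin, which is 15.2-fold lower (difference -3.93, SE 0.71). It was well above background on all 4 arrays, and the gap of 2.57 between metformin 1 and control 1 exceeded the gap of 1.11 between the controls and of 1.61 between the metformin samples. Its unadjusted p was the 16th smallest of all genes tested. Leaving out each sample in turn gave -4.73 (without metformin 1) to -3.13 (without metformin 2). Its signal was dim in the metformin samples, so the size of the difference depended on the treatment of background. With normexp background correction it was -2.13 (SE 0.42). With the deposited values scaled to each array's 75th percentile it was -2.80 (SE 0.49).

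Srebf1 had log2 values of -1.48 and -1.72 in the controls, with -0.38 for metformin 1 and -1.53 for metformin 2, so that the groups differed by 0.64 (SE 0.48) and overlapped. Only metformin 1 was high, and without it the difference was 0.07. In that sample Srebf1 was highest while Fads1, Fads2, Fasn and Acaca were each at their lowest. The array's single probe for Srebf1 does not tell its start sites apart.

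Genes that control SREBP and lipogenic transcription had small differences. Of 17 measured, 12 were higher and 5 lower, 2 of the higher ones without overlap, a share close to the 12.3% of all genes. The median difference was 0.09, with 0.04 to 0.25 when each sample was left out and -0.17 in the deposited table. Insig1, which holds SREBP in the endoplasmic reticulum and is itself an SREBP target, differed by 0.09 (SE 0.33), and Scap, the SREBP escort, by -0.12 (SE 0.32). Mlxipl, which encodes the sugar-responsive factor ChREBP, differed by 0.17 (SE 0.30), and Nr1h3, the oxysterol receptor LXR alpha that activates Srebf1, by 0.40 (SE 0.49). Rxra, the partner of LXR, and Mlx, the partner of ChREBP, were the 2 without overlap, at 0.34 (SE 0.31) and 0.30 (SE 0.30). Without metformin 1, Nr1h3 differed by -0.12 and Scap by 0.05. Srebf2, which encodes SREBP-2, had log2 values of -0.21 and 0.44 in the controls, with -1.01 for metformin 1 and 0.85 for metformin 2.

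Cholesterol synthesis and uptake genes, the classical SREBP-2 targets, split the metformin samples. Of 18 measured, 15 had their lowest level in metformin 1 and 16 were lower there than in metformin 2, against 44.7% of all genes. The list median was -1.14 in metformin 1 and 0.66 in metformin 2, with -0.13 and 0.13 for control 1 and 2. The median difference was -0.26, and 0.66 without metformin 1. Sqle, squalene epoxidase, had log2 values of 3.74 and 3.93 in the controls, with 2.07 for metformin 1 and 4.57 for metformin 2. In metformin 2, 17 of the 18 lay above their control mean, where Fasn, Fads1, Acaca, Scd1 and Thrsp lay below both controls.

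**Figure D3:**
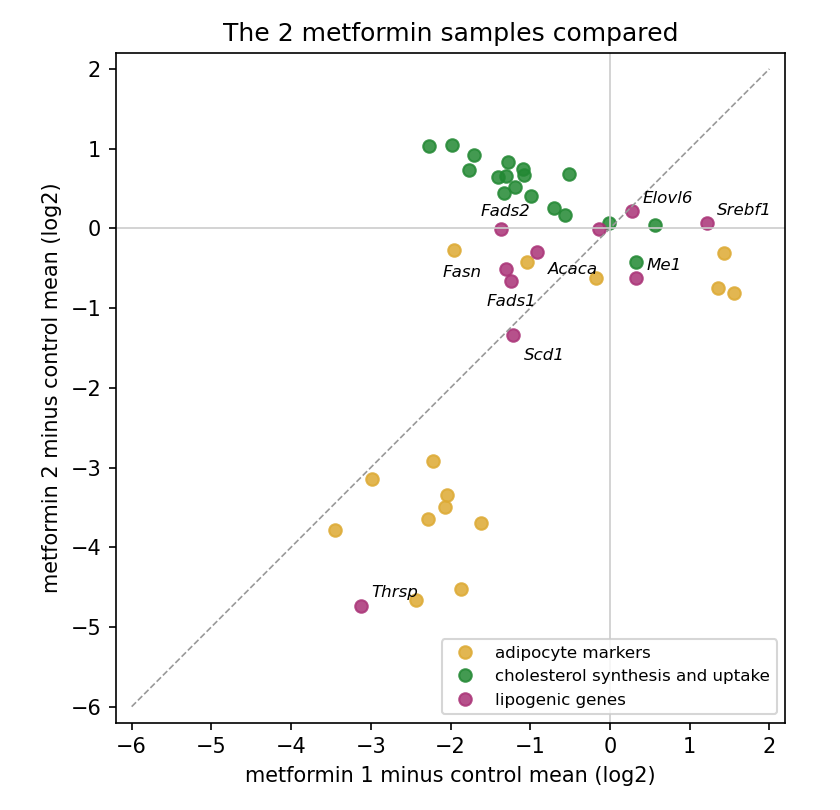
Each point is a gene, placed by its log2 signal in metformin 1 (horizontal axis) and metformin 2 (vertical axis), each minus the control mean; purple marks the 10 lipogenic genes, green cholesterol synthesis and uptake genes and ochre adipocyte markers, and the dashed line marks equal values. Thrsp lies low in both samples among the lower adipocyte markers, 16 of 18 cholesterol genes lie below 0 in metformin 1 and above 0 in metformin 2, and Fads2, Fasn, Fads1 and Acaca lie in between.

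The 10 genes did not order the metformin samples alike. In 5 of them (Fads1, Fads2, Fasn, Acaca and Acly) metformin 1 was below metformin 2, and in the other 5 it was above. Relative to the control mean, Fasn was at -1.31 in metformin 1 and -0.50 in metformin 2, Fads1 at -1.24 and -0.66, Scd1 at -1.21 and -1.34, and Thrsp at -3.13 and -4.73.

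Markers of fat cells were lower alongside Thrsp. Of 15 measured adipocyte markers 12 were lower with metformin, 9 of them without overlap, against 8.57% of all genes. The 9 include Plin1, which passed the filter on dim probes only through the controls. The others of the 9 were well above background on all 4 arrays. The median difference over the 15 was -2.66 (-1.64 with normexp background correction). The list median was -1.96 in metformin 1 and -3.15 in metformin 2, with 0.27 and -0.27 for control 1 and 2. Fabp4, the fatty acid binding protein of fat cells, had log2 values of 0.88 and 2.01 in the controls and -0.62 and -2.05 with metformin. Plin4, Retn and Lpl differed by -3.62 (SE 0.55), -2.97 (SE 0.68) and -2.57 (SE 0.58). Cidec, Aqp7 and Lipe, named after their values were seen, were higher by 0.57, 0.37 and 0.30, and each was highest in metformin 1. Of the 15, 14 were well above background on all 4 arrays and Plin1 on 3, while Lep did not pass the filter on dim probes. The part of fat cells in the values of Thrsp and Scd1 was not tested.

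By the root mean square difference of their centred log2 signals over the 4 arrays, among 14586 other named genes, the genes most like Thrsp were Adipoq (0.32), Col5a3 (0.44), Retn (0.49), Cfd (0.53) and Hp (0.56). Adipoq, the adipocyte hormone adiponectin, had log2 values of -2.60 and -1.14 in the controls and -4.31 and -6.54 with metformin. Thrsp and Adipoq had the same order of all 4 samples. Those most like Scd1 were Sod3 (0.05), Robo4 (0.09), Slc6a18 (0.10), Eng (0.13), also among the vessel markers, and Il1r1 (0.14). Those most like Srebf1 were Cyp2c37, Spata32, Clcn5, Ddc and Cyp2c54 (0.03 to 0.05), and Cyp2c probes can detect related genes. These likenesses rest on 4 arrays.

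Other cell types differed between the groups as well. Of 8 fibroblast markers, 7 were well above background on all 4 arrays, and these 7 were lower without overlap; the other passed the filter only through the controls. The median over the 8 was -2.08 (-1.38 without control 1). Lower without overlap, against 8.57% of all genes, were also 6 of 8 smooth muscle markers (median -3.12, or -0.57 without control 1) and 4 of 8 vessel markers. The vessel median was -0.81, with -0.52 without control 2 and -0.48 with normexp. Sparc, a matrix glycoprotein of fibroblasts, differed by -2.09 (SE 0.49). All 10 cell cycle markers were lower (median -0.73), 3 of them without overlap, with list medians of -1.17 in metformin 1 and -0.16 in metformin 2, and a median difference of -0.39 without control 2. Epithelial markers had a median difference of 0.19 (-0.07 in the deposited table). Leukocyte markers had 0.47, which turned to -0.16 without metformin 1. Pancreatic acinar markers (6 of 10 measured) had 0.14, which turned to -0.15 without control 1 and -0.04 without metformin 2. Of the 6, 5 were well above background on all 4 arrays, and with only such probes the median was -0.01. The other, Cela3b, passed the filter through 1 group only and was higher in both metformin samples. Ileal enterocyte markers were at -0.96 in metformin 1 and 0.23 in metformin 2. The part of these shifts in the values of the fatty acid genes was not tested.

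**Figure D4:**
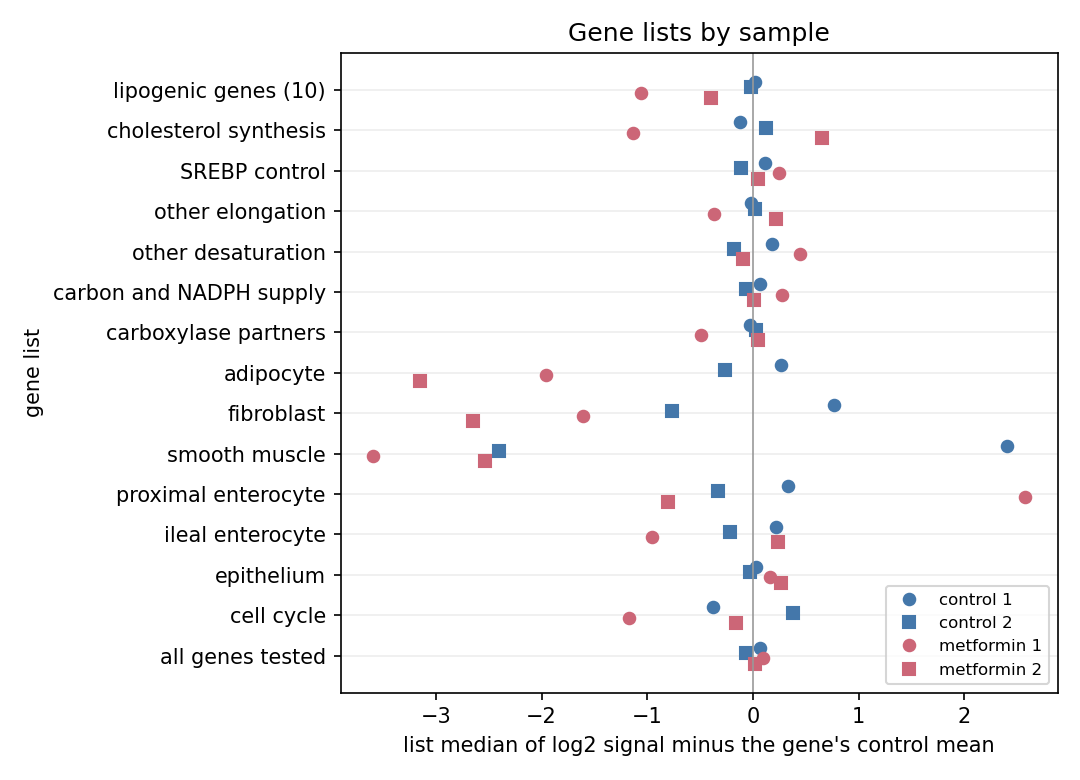
Median over each gene list (vertical axis), as log2 signal after subtracting each gene's mean in the controls (horizontal axis), with 1 point per sample; blue marks controls and red metformin samples, circles replicate 1 and squares replicate 2. Fatty acid genes are lower in both metformin samples (-1.06 and -0.40), adipocyte markers more so (-1.96 and -3.15), and cholesterol synthesis genes are low in metformin 1 (-1.14) and high in metformin 2 (0.66).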

How the data were processed

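RNA from 2 control and 2 metformin ileum samples was hybridised to 4 single-colour arrays. The authors' scanner files hold linear spot intensity values from Agilent Feature Extraction 10.7.3.1, per the file headers, with the processed signal already background-subtracted and detrended within each array. The deposited table of the series holds intensity values equal to the raw median spot signal for all 39030 probes with 1 spot, and served only as an alternative. Flags per spot (well above background, outlier) in the deposited files were used as given. Processed signals were put on the log2 scale and each array's 75th percentile over non-control probes served as its reference. Outlier spots were dropped, and spots of a probe averaged. Probes well above background on both arrays of a group were kept (26440 of 39429). RefSeq accessions named 27508 probes through the gene table of GRCm38.p6; since the headers name another build, the only coordinates given are those of the RefSeq promoter windows, with their own build. The brightest probe of a gene was tested, and other probes in a fit of all kept probes. Groups were compared two-sided with limma 3.58.1 (lmFit, then eBayes; R 4.3.3), with Benjamini-Hochberg adjustment over all 21648 genes and a threshold of 0.05; the fit was tested on simulated data. The normexp alternative used the median spot signal, as the files hold no mean signal. The 10 genes, the lists and the alternatives were chosen with earlier results of these data known. Named were all 10 genes, up to 5 genes of smallest p of each list, 9 regulators and relatives set by name, and the 5 nearest patterns of 3 genes; Vil1, Fabp6 and Sparc fall under the lists. A single gene that the rule would name is not reported here.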

Additional observations from a re-analysis of the deposited data

How the results depend on the processing

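In all 15 alternatives run, 0 of the 10 genes and 0 of all genes passed the adjusted threshold (smallest adjusted p over all genes 0.059, without metformin 2), and limma's fit had 114 to 1566 genes at an unadjusted p under 0.05. Thrsp, Scd1, Fads1, Fads2, Fasn, Acaca and Srebf1 kept their direction in all 15; their adjusted p ranged from 0.39 to 1. With all 4 samples, 4 to 5 of the 10 genes were lower without overlap. The share of all genes was then 5.14% (median scaling) to 17.8% (deposited table as it stands). Such separation is easier to reach with 1 sample left out, where the count was 6 to 7, against 22% to 31.7% of all genes. Fasn left the list with quantile normalization, median scaling and the deposited table as it stands. The count of genes higher without overlap was 2 with quantile normalization (14% of all genes) and with median scaling (26.4%). It was 0 in the deposited table as it stands (1.35%), and 1 to 3 when each sample was left out (24.6% to 42.7%). The median difference was -1.06 to -0.40 when each sample was left out, the lowest without metformin 2, and -0.73 to -0.32 in the other alternatives. Acly was reversed at 0.06 with median scaling, Elovl6 at -0.0016 in the deposited table as it stands; with samples left out, Acly ranged from -0.29 to 0.15 and Me1 from -0.63 to 0.32. The median of all genes was 0.06, 0.19 with median scaling and -0.17 in the deposited table. The deposited table did not move the 10 genes alike: Thrsp was -3.06 there and Fads1 -0.91. With the deposited values scaled to each array's 75th percentile, Thrsp was -2.80, Fads1 -0.65 and Elovl6 0.26, so Elovl6 was not reversed. The cause of the moves left after this scaling was not tested. With normexp, Thrsp, Fads1, Fads2 and Fasn were -2.13, -0.47, -0.17 and -0.58. Replicate numbers are shared between the groups, but the labels do not say that they pair samples. Deviations of same-numbered samples correlated at r = 0.56 across genes; with the replicate block limma's smallest adjusted p was 0.63 and Fasn differed by -0.91 (SE 0.15, adjusted p = 0.63).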

Other observations

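Of 17 measured genes for fatty acid activation and triglyceride assembly, 13 were higher with metformin, 3 of them without overlap, against 12.3% of all genes, and the median difference was 0.34, against 0.06 over all genes. With each sample left out this median ranged from 0.01 (without metformin 1) to 0.65 (without control 1), with 0.10 without control 2. None passed limma's adjusted test. Gpat3, a glycerol phosphate acyltransferase, had log2 values of 4.67 and 4.44 in the controls and 5.43 and 4.93 with metformin (difference 0.62, SE 0.33). Dgat2, which completes triglyceride, differed by 0.61 (SE 0.44) and Acsl5, an acyl-CoA synthetase of enterocytes, by 0.65 (SE 0.51), and in both metformin 1 was well above the other samples. Lpin1, a phosphatidate phosphatase, went the other way: it had log2 values of -3.48 and -4.02 in the controls and -4.15 and -5.38 with metformin (difference -1.01, SE 0.53).

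All 9 measured targets shared with LXR or ChREBP, other than the synthesis genes, were higher by a median of 0.26, none without overlap. Of all 21648 genes, 12467 were higher. Of the 9, 8 were highest in metformin 1, as were 8340 of all genes. Abca1, a cholesterol exporter, had log2 values of 0.48 and -0.05 in the controls, with 2.31 for metformin 1 and -0.04 for metformin 2. Khk, fructokinase, also among the proximal markers, differed by 0.66 (SE 0.52) and Abcg5, a sterol exporter subunit, by 0.40 (SE 0.60). With each sample left out the list median ranged from -0.20 (without metformin 1) to 0.98 (without metformin 2).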
